A study of Mus musculus with 69 samples.

Results

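The question here was which gene responses of the mouse lung to 162 µg of NRCWE-030, a titanium dioxide nanomaterial, had subsided by day 28, which were still present and which appeared late. For each of 18656 genes, the effect on day 1 (treated minus control) was set against the effect on day 28, and the difference of these effects was tested. This used 20 of the 69 arrays of the series, 5 in each of 4 groups. The animals were female C57BL/6 mice, obtained at 5 to 7 weeks of age and acclimatised for 1 to 3 weeks. All 20 mice received a single intratracheal instillation of 2% serum in water, either with 162 µg of NRCWE-030 or without particles, and lungs were collected 24 h (day 1) or 28 days later. The hour of collection is not given in the sources used here. Each array held Cy5-labelled RNA from a piece of the lung of 1 mouse and a Cy3-labelled commercial reference RNA, and levels are log2 ratios of lung to reference. Whole tissue was measured, so fewer cells of a type and less RNA per cell cannot be told apart.

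Particles that reach the alveoli are taken up by macrophages and epithelium, which release interleukins and chemokines. These call in neutrophils and monocytes and turn on acute phase genes, a set of secreted proteins that the lung, like the liver, makes within hours of injury. Neutrophils live briefly, whereas macrophages clear particles over weeks to months, so genes of the early phase and genes of particle-laden macrophages can follow separate time courses in the same lung.

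Between 54.17% and 71.3% of spots on these arrays were well above background in the lung channel, and none was saturated. The arrays came from 15 slides scanned on 11 days. With scan days numbered in sample order, the controls of day 1 were on 1, 3, 4, 5 and 10. The treated lungs of day 1 were on 5, 9, 10, 10 and 11. For day 28 the controls were on 2, 3, 4, 5 and 6 and the treated lungs on 2, 4, 6, 7 and 8. Treatment and scan day are thus partly confounded on both days and cannot be fully told apart. A slide held a treated and a control lung of the same day in 2 cases on day 1 and 3 cases on day 28, and within-slide effects are given for 7 genes. The labels do not say whether the mice of a group shared a cage or an instillation day. Genes are said to be called where limma gave an adjusted p (Benjamini-Hochberg over all genes) under 0.05.

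On day 1, 441 genes were called higher (2.36% of those tested) and 295 lower (1.58%). On day 28, 19 were called higher (0.102%) and 14 lower (0.075%). The difference of effects was called for 63 genes, 48 with the higher effect on day 1 (0.257%) and 15 with the lower (0.0804%), and 1813 genes had an unadjusted p under 0.05 in that contrast. Classes were defined from these calls. A gene was resolving when it was called on day 1 and in the difference, in the direction of its day 1 effect. It was persisting when called on both days in the same direction and not in the difference, and late when called on day 28 and in the difference with the larger effect on day 28. The resolving class can thus hold genes whose effect had reversed in sign by day 28, such as Adamts9, Ccnd3 and Slc13a4. This gave 58 resolving genes (45 higher and 13 lower on day 1), 14 persisting genes (9 higher, 5 lower) and 3 late genes, all lower on day 28. Another 664 genes were called on day 1 alone with no call in the difference, 16 on day 28 alone, and 2 (Prodh and Mctp1) in the difference alone. The count of 63 fell to 4 with scan day as a fixed block and rose to 165 with slide as a random block. It was 24 without the 3 arrays that had a high Cy3 background. With slide as a fixed block it was 45, of which 15 were among the 63, and 14 of the 58 resolving and 3 of the 14 persisting genes kept their class.

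**Figure D1:**
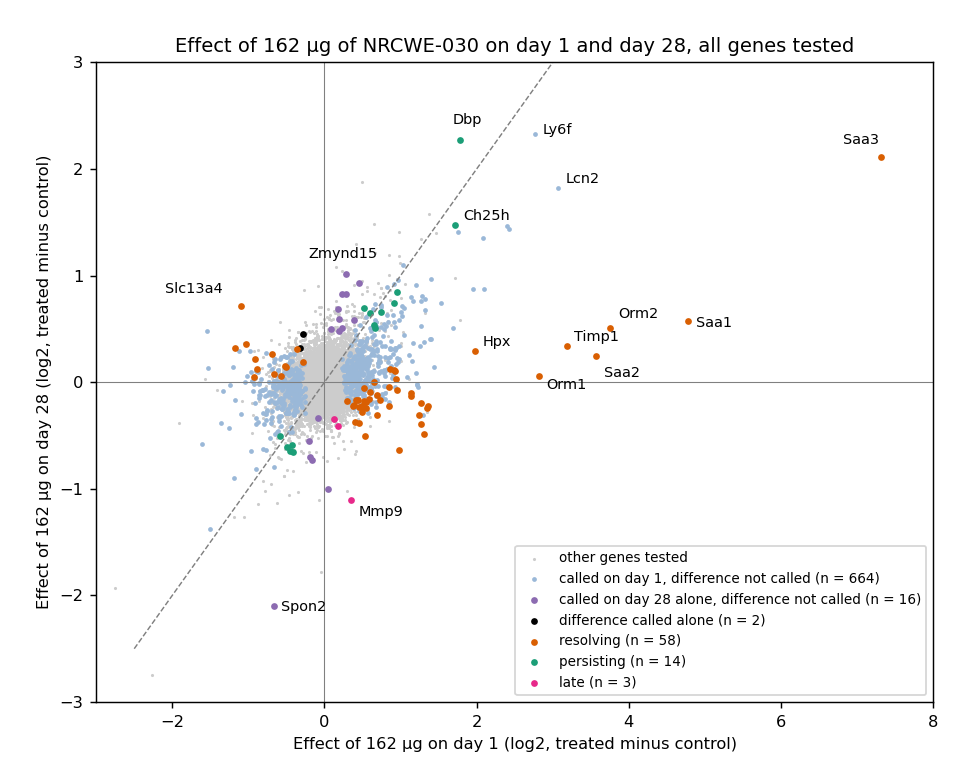
Effect of 162 µg of NRCWE-030 on day 1 (horizontal axis) and on day 28 (vertical axis), both as log2 treated minus control, for 18656 genes; each point is a gene, colours give the class and the dashed line marks equal effects. The 58 resolving genes lie near or across 0 on day 28, apart from Saa3 at 2.11, while the 14 persisting genes lie near the dashed line.

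The 4 largest differences called were those of acute phase genes. Of 18 listed members, 9 were called higher on day 1, 0 on day 28, and 5 in the difference. Their median effect was 0.53 on day 1 and 0.21 on day 28, against 0.00445 and -0.00182 over all genes. Of all genes tested, 2.36% were called higher on day 1, 0.102% on day 28 and 0.257% in the difference. A count of 0 on day 28 or in the difference, in this or a later list, is thus near the share of all genes. The 5 resolving members were Saa1, Saa2 and Saa3, which encode serum amyloid A proteins carried on high-density lipoprotein, and Orm1 and Orm2, which encode orosomucoids, plasma proteins that bind lipophilic compounds. The promoters of the 3 serum amyloid genes are shown because these genes moved together. They come from RefSeq for assembly GRCm38.p6, run from 250 bases before to 50 bases after the start of the gene, and capitals mark matches to TTGCNNAA on either strand, a C/EBP motif.
Saa1: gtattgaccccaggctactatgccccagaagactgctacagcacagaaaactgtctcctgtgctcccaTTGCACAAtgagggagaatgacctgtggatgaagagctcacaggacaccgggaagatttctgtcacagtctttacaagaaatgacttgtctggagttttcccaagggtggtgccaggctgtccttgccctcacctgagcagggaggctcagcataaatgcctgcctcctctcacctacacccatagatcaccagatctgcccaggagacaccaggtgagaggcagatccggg
Saa2: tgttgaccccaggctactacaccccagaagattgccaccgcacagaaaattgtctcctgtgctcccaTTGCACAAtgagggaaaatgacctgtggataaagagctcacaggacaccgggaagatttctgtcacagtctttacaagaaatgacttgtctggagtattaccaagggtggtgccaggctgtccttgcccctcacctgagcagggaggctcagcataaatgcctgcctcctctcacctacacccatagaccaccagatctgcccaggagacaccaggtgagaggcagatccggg
Saa3: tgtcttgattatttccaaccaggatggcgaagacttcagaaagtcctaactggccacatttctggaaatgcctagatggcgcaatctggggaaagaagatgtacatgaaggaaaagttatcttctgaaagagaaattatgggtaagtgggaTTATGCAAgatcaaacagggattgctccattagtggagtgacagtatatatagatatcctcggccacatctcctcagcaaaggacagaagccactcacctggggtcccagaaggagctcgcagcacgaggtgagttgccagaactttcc

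These windows are chr7:46742931-46743230 for Saa1 (minus strand), chr7:46751583-46751882 for Saa2 (plus strand) and chr7:46715627-46715926 for Saa3 (minus strand). Each held 1 match to the C/EBP motif, at bases -182 to -175 of the start site in Saa1, -183 to -176 in Saa2 and -99 to -92 in Saa3, and none held the kappaB consensus. The C/EBP motif was present in 11 of 45 promoters of resolving genes that were higher on day 1 (24.4%). These 45 windows belong to 39 genes. It was in 9.76% of the 18346 promoters of genes tested. It was also in 1 of 13 promoters of resolving genes lower on day 1 (7.69%) and 2 of 10 of persisting genes (20%). STAT and E-box motifs, also searched, were in 4.44% and 6.67% of the 45, and in 7.65% and 8.52% of all. The kappaB consensus was present in 4 of the 45 (8.89%) and in 6.67% of all. These are counts of letters in a window, and some genes have several windows.

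Saa3, the serum amyloid gene typical of macrophages and epithelium, had levels of -2.68, -1.91, -2.55, -3.25 and -2.69 in the controls of day 1 and 5.47, 5.34, 4.63, 3.97 and 4.07 in the treated lungs. On day 28 the controls read -3.50, -3.31, -3.55, -2.89 and -3.22, and the treated lungs -2.38, 0.02, -0.63, -3.90 and 0.99. The groups were far apart on day 1, while on day 28 the treated lungs spread from below the lowest control to well above the highest. The effect fell from 7.31 (159-fold) to 2.11 (4.33-fold), and the difference was 5.20 ± 0.86 (SE; 95% interval 3.40 to 6.99; adjusted p 0.00722). The day 28 effect itself was not called (adjusted p 0.219), with 4 of 5 treated lungs above the controls. Within slides the effect was 8.71 and 7.32 on day 1, and 1.12, 3.58 and 2.59 on day 28.

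Saa1 read -0.28, 0.13, -0.07, -0.51 and -0.09 in controls and 5.13, 5.24, 4.36, 4.31 and 4.05 in treated lungs on day 1. On day 28 it read -0.55, -0.44, -0.61, -0.43 and -0.46 in controls and -0.26, 0.31, 0.05, -0.57 and 0.83 in treated lungs. Treated replicate 4 was within the control range while the other 4 were above it. The effect went from 4.78 (27.5-fold) to 0.57 (1.49-fold), a difference of 4.21 ± 0.33 (SE; adjusted p 3.23e-07). Within slides the Saa1 effect was 5.65 and 4.45 on day 1, and 0.29, 0.92 and 0.51 on day 28. Saa2 followed it, from 3.57 to 0.25 (difference 3.32 ± 0.18, adjusted p 1.39e-09). Saa1 and Saa2 are near-identical genes, so their probes may share signal. Saa1, Saa2 and Timp1 were the named genes whose difference was called under each of 14 alternatives, while Saa3, Orm1 and Orm2 were called under 12. Each count out of 14 includes 1 alternative that leaves the ratios unchanged and so cannot differ from the main fit.

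Orm2 had effects of 3.76 on day 1 and 0.51 on day 28 (difference 3.25 ± 0.47, adjusted p 0.00307), and Orm1 2.82 and 0.06 (2.76 ± 0.42, adjusted p 0.00444). In controls Orm1 was well above background on 1 of 5 arrays on each day, and Orm2 on 1 of 5 on day 1 and 2 of 5 on day 28, so both sets of effects are measured against dim spots. For Orm2, 1 control of each day stood apart at 1.41 and 1.49. Hpx, the hemopexin gene, whose product binds free heme, had effects of 1.97 and 0.29 (difference 1.68 ± 0.27, adjusted p 0.0055). Lcn2, Cp, Serpina3n and Saa4 were called on day 1 but not in the difference, with day 28 effects of 1.82, 0.14, 0.20 and 0.08. Lcn2 encodes lipocalin 2, which binds bacterial siderophores, and its day 28 values are given with the genes that differed between treated arrays.

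**Figure D2:**
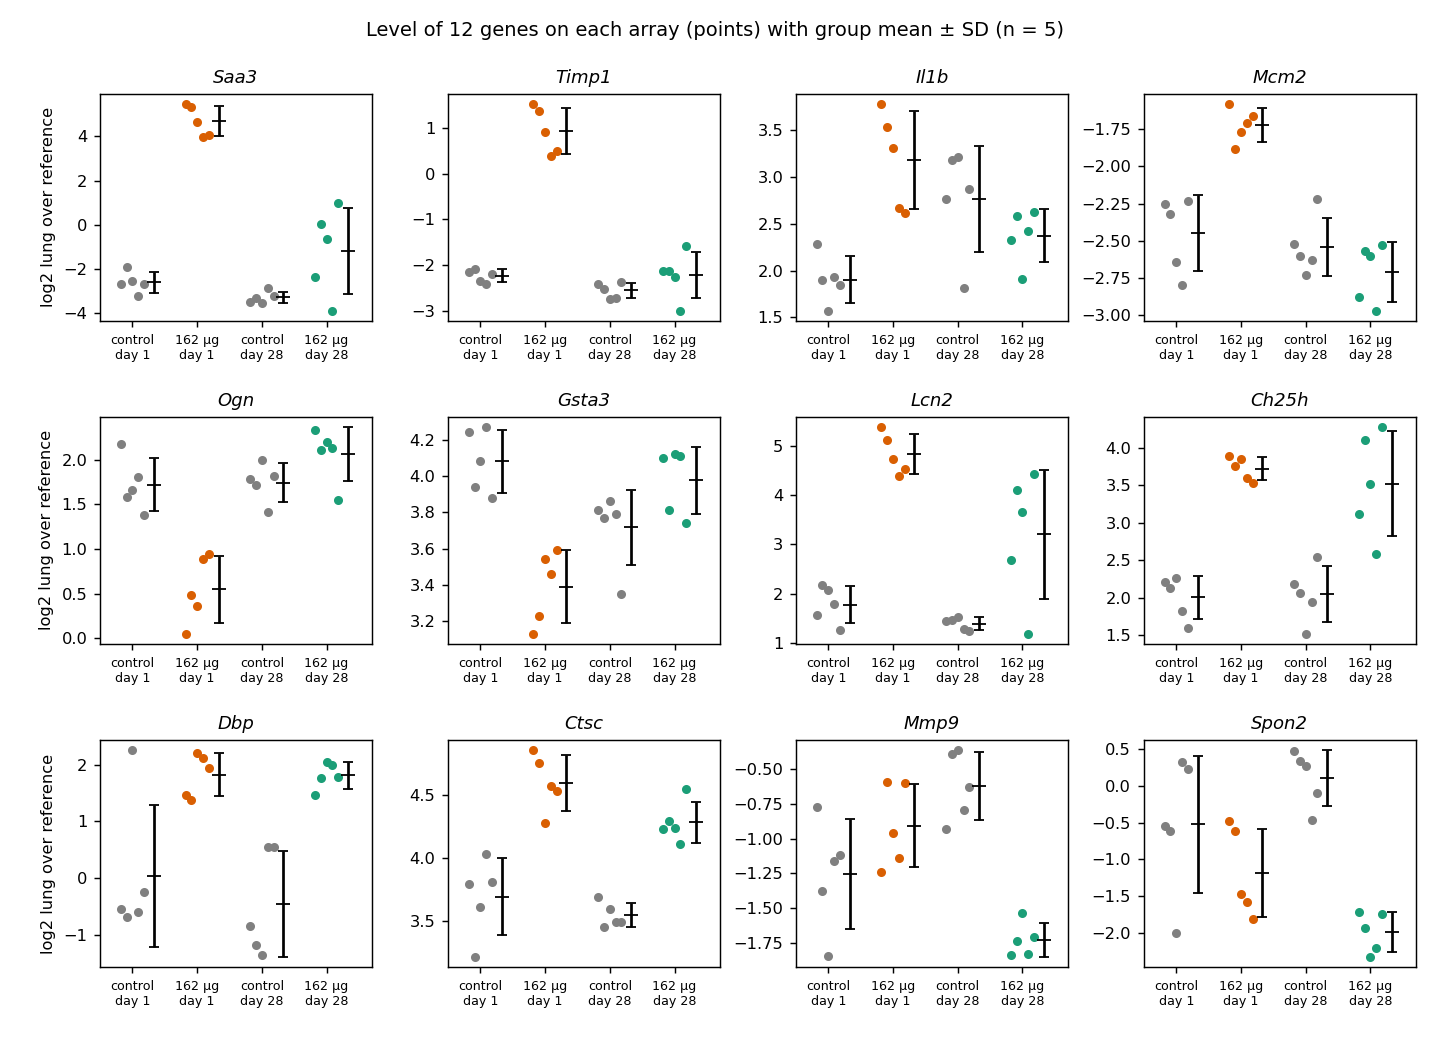
Level of 12 genes (log2 lung over reference) on each of the 20 arrays; points are mice, grey for controls and coloured for 162 µg of NRCWE-030, and bars give the group mean ± SD (n = 5). Saa3 and Timp1 fall back by day 28, Ch25h stays above every control and Lcn2 does in 4 of 5 mice, and Mmp9 and Spon2 are below every control on day 28.

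Timp1, Il1b, Il1r2 and Csf3r were among the resolving genes outside the acute phase list. Timp1, an inhibitor of matrix metalloproteinases, read -2.15, -2.08, -2.35, -2.42 and -2.19 in controls and 1.53, 1.37, 0.92, 0.40 and 0.50 in treated lungs on day 1. By day 28 levels were -2.41, -2.53, -2.74, -2.72 and -2.38 in controls and -2.13, -2.13, -2.26, -3.0 and -1.58 in treated lungs. The gap between groups closed, though 4 of 5 treated lungs were still above the controls. The effect went from 3.18 (9.08-fold) to 0.34 (1.26-fold), a difference of 2.85 ± 0.31 (SE; adjusted p 6.31e-05). Its 2 probes gave differences of 2.34 and 3.35. Within slides the Timp1 effect was 3.96 and 3.11 on day 1, and 0.28, 0.61 and 0.12 on day 28.

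Il1b, which encodes the cytokine interleukin 1 beta, read 2.28, 1.90, 1.57, 1.93 and 1.84 in controls and 3.78, 3.53, 3.31, 2.67 and 2.61 in treated lungs on day 1. On day 28 the controls were themselves high, at 2.76, 3.18, 3.21, 1.81 and 2.87, and the treated lungs read 2.33, 2.58, 1.91, 2.42 and 2.62. The groups were separate on day 1 and overlapped on day 28, with effects of 1.27 and -0.39 and a difference of 1.67 ± 0.35 (adjusted p 0.04). Between the days the treated mean fell by 0.80 and the control mean rose by 0.86, so the change in the effect came from both. The call was kept under 9 of 14 alternatives, and in 5 of 20 fits that each left out 1 array.

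The control mean moved more than the treated mean in 9 of the 63 genes called in the difference, and the control mean moved by at least 0.5 in 8 of the 63. These 8 were Il1b (0.86), Adamts9 (0.74), Cacybp (0.69), Mmp9 (0.63) and Csf3r (0.58), where controls were higher on day 28, and Slc13a4 (-0.72), Saa3 (-0.68) and Myom3 (-0.64), where they were lower. The 9 genes where the control mean moved more were Il1b, Adamts9, Cacybp, Myom3, Ccnd3, Itga11, Fbxo31, Grb7 and Prodh. In the other 54 of the 63, which include Saa3, Mmp9, Csf3r and Slc13a4, the treated mean moved more. Whether control lungs of the days differed through age, handling or array batch cannot be told apart.

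Csf3r, the receptor for granulocyte colony-stimulating factor on neutrophils, went from an effect of 1.25 to -0.31 (difference 1.55 ± 0.28, adjusted p 0.016), and Il1r2, a decoy receptor for interleukin 1, from 1.36 to -0.23 (1.59 ± 0.30, adjusted p 0.02). The 2 probes of Il1r2 gave differences of 2.43 and 0.74, and the second was well above background on 10 of 20 arrays. Mefv, the gene of the inflammasome protein pyrin, had effects of 1.27 and -0.20 (difference 1.47 ± 0.24, adjusted p 0.00722). Asprv1 had effects of 0.98 and -0.64 (1.62 ± 0.26, adjusted p 0.0068), and Tnfsf14, a cytokine of the tumour necrosis factor family, 0.85 and -0.23 (1.07 ± 0.23, adjusted p 0.0475). Of 18 neutrophil markers, 3 were called higher and 1 lower on day 1, 1 lower on day 28 and 2 higher in the difference (Csf3r and Mmp9). Their median effect was 0.18 on day 1 and -0.18 on day 28, and the mean level of the list ran from 1.08 to 1.70 in the controls of day 28 and from 0.97 to 1.35 in the treated lungs. The granule genes Elane and Mpo, which mark immature neutrophils, had day 1 effects of 0.05 and 0.07. Clec4d, a lectin receptor of myeloid cells, was called on day 1 (1.30) but not in the difference (1.60, adjusted p 0.117).

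Of 24 chemokines, 11 were called higher and 1 lower (Cxcl14, -0.39) on day 1, and 0 on day 28, against 3.95% and 0.177% of all genes. Of the 24, Ccl24 alone, an eosinophil attractant, was called in the difference, from 1.30 to -0.48 (1.79 ± 0.38, adjusted p 0.0411). Its call was kept under 5 of 14 alternatives, and in 6 of 20 fits that each left out 1 array. In that gene 1 control of day 28 stood apart at -1.69 against -3.04 for the next. The monocyte attractants Ccl2, Ccl7 and Ccl12 had day 1 effects of 2.09, 2.43 and 1.76 and day 28 effects of 1.36, 1.43 and 1.41. Ccl17 went from 1.38 to 0.40 with a difference of 0.98 (adjusted p 0.117). The median of the list was 0.96 on day 1 and 0.48 on day 28. Il6, the interleukin 6 gene, was not well above background in any control of day 1 and was at least 2.08-fold higher in the treated lungs. Its day 28 effect was 0.09 and the difference was not called (1.12, adjusted p 0.237). Across the 26 cytokines and feedback regulators, 9 were called higher on day 1, 0 on day 28 and 2 in the difference (Il1b and Il1r2). Over all genes these shares were 2.36%, 0.102% and 0.257%.

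The study's bicluster-3, a set of genes it associates with chemokine activity and derived from public data on lung diseases, had 7 of 16 members called higher on day 1, 0 on day 28 and 0 in the difference. Its median was 0.97 on day 1 and 0.48 on day 28. Bicluster-7, which the study associates with fibrosis, had 4 of 19 members called higher on day 1 and medians of 0.21 and 0.34. Socs3, a feedback inhibitor of cytokine signalling and a member of bicluster-3, had effects of 0.45 and -0.01, with a difference that was not called (0.45, adjusted p 0.372).

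Another resolving group held genes of protein folding and glycosylation in the endoplasmic reticulum and genes of DNA replication. These lists were chosen after the values were seen, so their counts are descriptions. Of 17 endoplasmic reticulum genes, 7 were called higher on day 1, 0 on day 28 and 4 in the difference, with medians of 0.43 and -0.12. Sdf2l1, a stress-induced chaperone component, read -1.58, -1.11, -1.65, -1.31 and -1.24 in controls and -0.11, -0.22, -0.42, -0.42 and 0.00 in treated lungs on day 1. Levels on day 28 were -1.5, -1.34, -1.62, -1.22 and -1.02 in controls and -1.47, -1.44, -1.30, -1.89 and -1.26 in treated lungs. The groups were separate on day 1 and overlapped on day 28 (effects 1.14 and -0.13, difference 1.27 ± 0.19, adjusted p 0.00363). Pdia6, a disulphide isomerase, Rpn1, a subunit of the oligosaccharyltransferase, and Mlec, a lectin that reads new glycans, had differences of 0.71, 0.58 and 0.61. Hspa5, the main luminal chaperone, was called on day 1 (0.73) and read -0.15 on day 28, but its difference of 0.88 was not called (adjusted p 0.183).

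All 6 genes of the MCM helicase, which unwinds DNA at replication origins, were called higher on day 1, 0 on day 28, and Mcm2, Mcm3 and Mcm6 in the difference. Mcm2 read -2.25, -2.32, -2.64, -2.80 and -2.23 in controls and -1.58, -1.88, -1.77, -1.71 and -1.66 in treated lungs on day 1. On day 28 the ranges were -2.73 to -2.22 in controls and -2.97 to -2.53 in treated lungs, which overlap. The effects were 0.73 and -0.17, with a difference of 0.90 ± 0.17 (adjusted p 0.0194). Mcm6 went from 0.86 to 0.12 (0.74 ± 0.15, adjusted p 0.0345), Mcm3 from 0.69 to -0.12 (0.82 ± 0.16, adjusted p 0.0279) and Pcna, the sliding clamp of DNA polymerases, from 0.60 to -0.10 (0.70 ± 0.13, adjusted p 0.02). Of the 18 mitosis and replication genes, 4 were called higher on day 1, namely Mcm2, Mcm5, Mcm6 and Tyms, and Plk1 was called lower (-0.39). Mki67, a marker of cycling cells, had effects of 0.23 and -0.18, neither called. The call of Mcm2 was kept under 9 of 14 alternatives and that of Mcm6 under 7. With each array left out in turn, they were kept in 19 and 7 of 20 fits.

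The promoter of Mcm6 is shown because it carries the motif of E2F, the factor family of S phase genes. Capitals mark matches to TTTGGCGC, 1 of 2 E2F motifs searched on both strands (the other was TTTCCCGC).
Mcm6: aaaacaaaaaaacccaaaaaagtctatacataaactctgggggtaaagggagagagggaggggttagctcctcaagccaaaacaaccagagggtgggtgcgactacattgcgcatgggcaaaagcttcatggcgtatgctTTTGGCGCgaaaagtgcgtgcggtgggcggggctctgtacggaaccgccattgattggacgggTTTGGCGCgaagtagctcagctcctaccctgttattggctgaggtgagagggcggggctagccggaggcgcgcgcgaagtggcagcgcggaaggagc
This window is chr1:128359656-128359955 on the minus strand of GRCm38.p6, and its 2 matches lie at bases -110 to -103 and -47 to -40 of the start site. The window of Mcm2 (chr6:88898731-88899030, minus strand) held no match. The E2F motifs were present in 2 of the 45 promoters of resolving genes higher on day 1 (4.44%) and in 2.21% of those of genes tested.

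Other genes that rose and returned included Hmox1, the heme oxygenase gene. It read -1.71, -1.31, -1.49, -1.47 and -1.30 in controls and -0.20, -0.43, -0.67, -0.76 and -0.52 in treated lungs on day 1, with no overlap. On day 28 the ranges were -1.85 to -1.23 and -1.84 to -1.24, which nearly coincide. The effect went from 0.94 to 0.03 (difference 0.91 ± 0.19, adjusted p 0.0351). This call was kept under 8 of 14 alternatives, and in 7 of 20 fits that each left out 1 array. Of 17 metallothionein and antioxidant genes, 3 were called higher on day 1 (Hmox1, Mt2 and the zinc transporter Slc39a14), 0 on day 28 and 1 in the difference. Mt2, a metallothionein, had effects of 1.26 and 0.34.

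Among genes of the matrix, Mmp3, the stromelysin gene, went from 1.34 to -0.24 (difference 1.59 ± 0.31, adjusted p 0.0225), and Adamts9, a secreted protease, from 0.53 to -0.51 (1.04 ± 0.17, adjusted p 0.0055). The Adamts9 effect thus reversed in sign. Its treated mean moved by -0.30 between the days and its control mean by 0.74. The 2 probes of Adamts9 gave differences of 1.75 and 0.34, and the latter was well above background on 3 of 20 arrays. Of 25 matrix remodelling genes, 6 were called higher and 1 lower (Timp2, -0.90) on day 1, 1 lower on day 28 (Spon2) and 3 higher in the difference. The median was 0.18 on day 1 and -0.21 on day 28, and 6 of 25 members were above 0 on day 28, against 9203 of all 18656 genes. Col3a1, a fibrillar collagen, was called on day 1 (0.57) and read -0.29 on day 28. The tubulins Tubb2a and Tubb5 had effects of 0.41 and 0.50 on day 1 and -0.37 and -0.23 on day 28, with differences of 0.78 and 0.73. Tubb2a was below every control on day 28, at -0.85 to -0.57 against -0.48 to -0.28.

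The other 17 resolving genes that were higher on day 1 had differences from 0.47 to 1.24. Lgals1, which encodes the sugar-binding protein galectin 1, had effects of 1.13 and -0.10 (difference 1.24, adjusted p 0.04), and Pilrb1, an activating receptor of myeloid cells, 0.95 and -0.07 (1.02, adjusted p 0.0142). Psat1, an enzyme of serine synthesis, had effects of 0.70 and -0.30, Bmper, a regulator of BMP signalling, 0.93 and 0.11, and Efemp2, an elastic fibre protein, 0.91 and 0.11. Ykt6 and Ergic1, genes of transport between endoplasmic reticulum and Golgi, had differences of 0.74 and 0.69. Ccnd3, the cyclin D3 gene, had effects of 0.45 and -0.38 (difference 0.83, adjusted p 0.0142). The remaining 9 were Amer2, Cavin3, Cenpt, Dnmt3l, Fads2, Nop16, Samd14, Tceal9 and Tmem45a.

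Among the 58 resolving genes, 46 had a day 28 effect of the opposite sign, 33 of the 45 that had been higher on day 1 and all 13 that had been lower. A call in the difference favours genes whose effects oppose, so this count is in part set by the choice of genes. On day 28, 23 of the 58 had an unadjusted p under 0.05 in limma, against 1668 of the 18656 genes tested. In 5 of the 58 every treated lung lay beyond every control, against 2.11% of all genes. The day 28 effect is part of the difference that chose the 58, so these counts too are in part set by the choice. The 23 were not split by direction.

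The 13 resolving genes that were lower on day 1 included a matrix proteoglycan, a sulphate transporter and glutathione transferases. Ogn, which encodes the matrix proteoglycan osteoglycin, read 2.18, 1.58, 1.66, 1.81 and 1.38 in controls and 0.05, 0.49, 0.36, 0.89 and 0.95 in treated lungs on day 1. On day 28 it read 1.78, 1.72, 2.00, 1.41 and 1.82 in controls and 2.34, 2.11, 2.20, 2.13 and 1.55 in treated lungs. All treated lungs were lower on day 1, and 4 of 5 were above the controls on day 28. The effects were -1.18 and 0.32, with a difference of -1.5 ± 0.25 (adjusted p 0.00772), called under 13 of 14 alternatives. Slc13a4, a sulphate transporter, showed the widest swing of these genes, from -1.10 to 0.72 (difference -1.82 ± 0.24, adjusted p 0.00155). Its treated lungs read 0.87 to 2.28 on day 1 against 2.53 to 2.95 in controls, and 2.69 to 2.90 on day 28 against 1.85 to 2.30. Dpep1, a dipeptidase gene, went from -1.03 to 0.36 (-1.39 ± 0.19, adjusted p 0.00156).

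Gsta3 and Gstm1, glutathione transferases that detoxify electrophiles, went from -0.69 to 0.26 (difference -0.96 ± 0.17, adjusted p 0.0107) and from -0.92 to 0.05 (-0.98 ± 0.19, adjusted p 0.0267). Gsta3 read 3.88 to 4.27 in controls and 3.13 to 3.59 in treated lungs on day 1, with no overlap, and 3.35 to 3.86 and 3.74 to 4.12 on day 28, with overlap. Of 19 glutathione transferases, a list chosen after the values were seen, 4 were called lower on day 1 (also Gsta1 and Gstm3), 0 on day 28 and 2 in the difference. Bicluster-10, which the study associates with reactive oxygen species, had 3 of 16 members called lower on day 1 (Pcolce2, Omd and Scube2), 0 on day 28 and 0 in the difference, and its median went from -0.39 to 0.06. Itga11, a collagen-binding integrin, C1qtnf4, Fbxo31, Itm2b, Grb7 and Pttg1 had differences from -0.74 to -0.47. With each array left out in turn, the difference was called in 6 of 20 fits for Itga11, 8 for Itm2b, 12 for C1qtnf4 and 20 for Fbxo31.

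Myom3 and Fhl1, genes of striated muscle among other tissues, went from -0.91 to 0.22 (difference -1.13 ± 0.17, adjusted p 0.00363) and from -0.88 to 0.12 (-1.0 ± 0.22, adjusted p 0.0475, called under 4 of 14 alternatives). With each array left out in turn, the difference was called in 20 of 20 fits for Myom3 and 4 for Fhl1. Of 12 heart muscle markers, 0 were called in any of the 3 contrasts. Their mean level ran from 0.36 to 4.34 in the controls and 0.04 to 3.07 in the treated lungs of day 1, and from 1.17 to 3.03 and 0.19 to 3.33 on day 28. The part of heart muscle RNA in these 2 results was not tested.

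**Figure D3:**
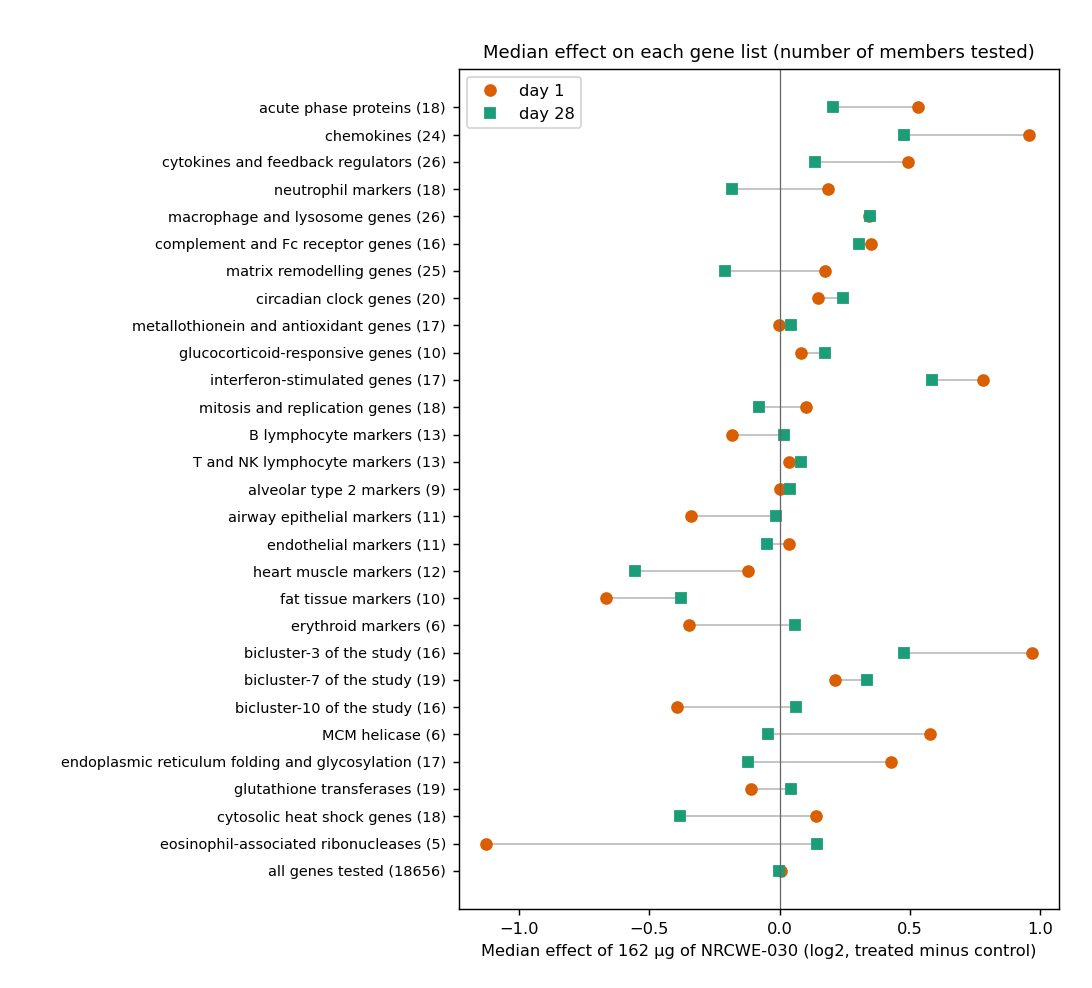
Median effect of 162 µg of NRCWE-030 (horizontal axis, log2 treated minus control) over the members of each gene list on day 1 (circles) and day 28 (squares); numbers in parentheses are members tested. Acute phase, chemokine and cytokine lists shrink towards 0, the medians of the macrophage and complement lists are close on both days although single members moved, and the median of all 18656 genes is near 0 on both days.

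The 14 persisting genes were called on both days in the same direction. Ch25h, which encodes cholesterol 25-hydroxylase, an enzyme that makes an oxysterol with antiviral and chemoattractant roles, read 2.21, 2.13, 2.27, 1.82 and 1.60 in controls and 3.89, 3.76, 3.85, 3.60 and 3.53 in treated lungs on day 1. The day 28 values were 2.19, 2.07, 1.52, 1.95 and 2.54 in controls and 3.12, 4.11, 3.52, 2.59 and 4.28 in treated lungs. The groups did not overlap on either day, though the treated lungs spread more on day 28. The effects were 1.72 ± 0.25 (3.29-fold, adjusted p 0.000516) and 1.47 ± 0.25 (2.77-fold, adjusted p 0.0174). The difference was 0.25, with a 95% interval from -0.48 to 0.97, so a loss of up to 0.97 or a gain of up to 0.48 is within its error. Within slides the Ch25h effect was 2.07 and 2.25 on day 1, and 0.93, 2.59 and 0.98 on day 28.

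Ctsc, the gene of cathepsin C, a lysosomal protease that activates granule serine proteases, had effects of 0.91 and 0.74 (difference 0.17, interval -0.21 to 0.55). It read 3.21 to 4.03 in controls and 4.28 to 4.86 in treated lungs on day 1, and 3.45 to 3.69 and 4.11 to 4.55 on day 28, with no overlap on either day. Bcl2a1b, a survival gene of the BCL2 family, had effects of 0.95 and 0.85, Clec4a2, a C-type lectin receptor, 0.74 and 0.66, Cd69, an early activation antigen of leukocytes, 0.60 and 0.65, and Cd302, another C-type lectin receptor, 0.67 and 0.51. F10, the coagulation factor X gene, had effects of 0.65 and 0.53, and Tmem243, a membrane protein gene, 0.52 and 0.70. In 9 of the 14 genes every treated lung lay beyond every control on both days. Over all genes this held for 4.56% on day 1 and 2.11% on day 28, each day taken alone. The 14 were chosen by their calls on these same arrays, which favours such separation, so nothing is read from this count. Bcl2a1b is one of several near-identical copies, so its probe may share signal.

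The other 5 persisting genes were lower on both days. Hsp90aa1, the inducible cytosolic HSP90, had effects of -0.45 and -0.64, Eif3k, a subunit of translation initiation factor eIF3, -0.41 and -0.65, Commd9 -0.49 and -0.61, Mrgprf -0.43 and -0.59 and Wfdc1 -0.59 and -0.50. The calls on day 28 rest on few arrays: leaving out control replicate 3 of day 28 left 1 persisting gene. Across 14 alternatives the day 28 call was kept in 10 for Eif3k, 9 for Dbp, 8 for Ch25h, 7 for Cd69, 6 for Ctsc, Bcl2a1b and Tmem243, and 4 for Clec4a2. With each of the 20 arrays left out in turn it was kept in 20 fits for Eif3k, 16 for Ch25h, 15 for Ctsc and 12 for Tmem243, but in 5 for Cd69, 4 for Bcl2a1b and Clec4a2 and 3 for Dbp.

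Dbp, a transcription factor gene driven by the circadian clock, had the largest day 28 effect among the persisting genes. It read -0.55, -0.69, 2.26, -0.60 and -0.25 in controls and 1.46, 1.38, 2.21, 2.12 and 1.95 in treated lungs on day 1. By day 28 levels were -0.84, -1.18, -1.36, 0.55 and 0.54 in controls and 1.46, 1.76, 2.05, 2.00 and 1.79 in treated lungs. A single control of day 1 was above all treated lungs, so the groups overlapped on day 1, while on day 28 they were separate. The effects were 1.79 and 2.27 with a difference of -0.48 (interval -1.84 to 0.88). Within slides the Dbp effect was 2.05 and 2.46 on day 1, and 2.30, 3.12 and 1.5 on day 28. Of 20 clock genes, 4 were called higher and 1 lower on day 1 (Dbp, Nr1d2, Per2 and Bhlhe40 higher, Arntl lower at -1.51), 1 on day 28 (Dbp) and 0 in the difference. Arntl read -1.37 and Nr1d2 0.92 on day 28, neither called. Hlf, a clock output gene, had a difference of -0.55, which was not called. Clock genes vary with the hour of the day, which is not given here, so the hour of collection and the treatment cannot be told apart.

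Most genes called on day 1 fell in neither class. Of the 441 called higher on day 1, 306 (69.4%) were above 0 on day 28, and 115 (26.1%) were higher with an unadjusted p under 0.05, against 4.82% of all genes. Of the 295 called lower, 201 (68.1%) were below 0, and 58 (19.7%) were lower with an unadjusted p under 0.05, against 4.12% of all genes. The days share no arrays, but they share some scan days, and treatment was unevenly spread over scan days on both. The effect was smaller on day 28 for 429 of the 441 and 287 of the 295, against 55.6% of all genes. Choosing genes by their day 1 call favours a smaller effect on the other day, so nothing is read from these counts. In the 664 genes called on day 1 alone without a call in the difference, the median absolute effect was 0.50 on day 1 and 0.13 on day 28, and 481 kept their sign. The median standard error of their difference was 0.166, so for many a return to control and a lasting part of the effect were both within the error. At an unadjusted p under 0.05, 420 of them differed between days, against 9.72% of all genes. The day 1 effect that chose them is part of that difference, so their count is raised by the choice.

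The largest day 28 effects among these 664 genes were those of Ly6f, Lcn2, Noxo1 and Ccl7, and they differed between treated arrays. Lcn2 read 1.57, 2.17, 2.07, 1.79 and 1.25 in controls and 5.39, 5.12, 4.74, 4.40 and 4.53 in treated lungs on day 1. On day 28 it read 1.45, 1.46, 1.52, 1.28 and 1.23 in controls and 2.68, 4.11, 3.65, 1.18 and 4.43 in treated lungs. Replicate 4 was below the lowest control, and the other 4 were above the highest. The effects were 3.06 and 1.82 (adjusted p 0.0773 on day 28) with a difference of 1.24 (interval 0.04 to 2.44, adjusted p 0.5).

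Ly6f, a member of the LY6 family of membrane proteins, read 1.57, 3.67, 3.24, 0.19 and 4.33 in the treated lungs of day 28 against 0.16 to 0.41 in controls. Noxo1, an organiser of a superoxide-producing NADPH oxidase, read 0.49, 2.06, 1.79, -0.44 and 2.57 against -0.24 to -0.10. Ccl7 read -3.03, -0.51, -1.54, -3.31 and 0.15 against -3.56 to -2.76. In each, replicate 5 of the treated lungs was highest and replicate 4 lowest. On day 1 the treated lungs of Ly6f ran from 2.41 to 3.24 and those of Noxo1 from 1.88 to 2.82, with less spread.

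A similar order held across the genes called higher on day 1. Relative to the control mean of day 28, the median over these 441 genes was 0.040, 0.134, 0.129, -0.054 and 0.249 in treated replicates 1 to 5, against 0.490 to 0.596 in the treated lungs of day 1. Replicate 4 was the lowest of the 5 in 54.9% of the 441 genes and in 22.8% of all genes, and replicate 5 the highest in 53.3% and 22.5%. In the 295 genes called lower on day 1 the medians were -0.016, -0.084, -0.136, 0.023 and -0.189. Over all genes the medians of these 5 arrays lay between -0.014 and 0.007. Replicates 4 and 5 were scanned on days 7 and 8, on slides 12 and 13, which held no control lung. For these arrays, differences between mice and between slides or scan days cannot be told apart. These are descriptions of 5 arrays, and their cause was not tested. Without replicate 4 the day 28 count rose from 33 to 58 genes.

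The 3 late genes were all lower on day 28. Mmp9, the gelatinase B gene, expressed by neutrophils and macrophages, read -0.77, -1.38, -1.85, -1.16 and -1.12 in controls and -1.24, -0.59, -0.96, -1.14 and -0.60 in treated lungs on day 1. Day 28 gave -0.93, -0.39, -0.36, -0.79 and -0.63 in controls and -1.84, -1.74, -1.54, -1.83 and -1.71 in treated lungs. The groups overlapped on day 1, and on day 28 all treated lungs were below all controls. The effects were 0.35 (adjusted p 0.3) and -1.11 (0.464-fold, adjusted p 0.0106), and the difference 1.46 ± 0.24 (adjusted p 0.00634), called under 12 of 14 alternatives. The 2 probes gave differences of 1.54 and 1.37, and within slides the day 28 effect was -0.91, -1.37 and -0.90. Magt1, a subunit of the oligosaccharyltransferase, had effects of 0.18 and -0.41 (difference 0.59 ± 0.11, adjusted p 0.0194), and Eif1ax, a translation initiation factor, 0.13 and -0.35 (0.48 ± 0.10, adjusted p 0.0373).

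Another 16 genes were called on day 28 alone, without a call in the difference. Spon2, a matrix protein of the F-spondin family, read -0.55, -0.61, -2.01, 0.32 and 0.23 in controls and -0.48, -0.61, -1.47, -1.58 and -1.81 in treated lungs on day 1. The day 28 values were 0.48, 0.34, 0.27, -0.46 and -0.09 in controls and -1.72, -1.94, -2.33, -2.21 and -1.75 in treated lungs. The groups overlapped on day 1 and were separate on day 28. The effects were -0.67 and -2.10 (0.234-fold, adjusted p 0.0154), with a difference of 1.43 (interval 0.42 to 2.45, adjusted p 0.288). The day 28 call was kept under 12 of 14 alternatives. Within slides the Spon2 effect was -0.80 and -1.69 on day 1, and -2.20, -2.21 and -2.24 on day 28.

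Zmynd15, a zinc finger gene, read 1.64 to 2.00 in controls and 2.50 to 3.26 in treated lungs on day 28, with an effect of 1.01 (adjusted p 0.00636) against 0.29 on day 1. Tlr2, the receptor for bacterial lipopeptides, had effects of 0.83 on day 28 and 0.22 on day 1, Serpind1, the heparin cofactor II gene, 0.83 and 0.28, and Tnfrsf4, a costimulatory receptor of T cells, 0.93 and 0.45. B2m, the light chain of MHC class I, had effects of 0.68 and 0.18. None of these was called in the difference, with adjusted p from 0.134 to 0.542. Anxa2, Ndufb5, Fkbp4 and Hsph1 were lower on day 28, with effects of -0.73, -0.70, -0.55 and -1.0. For Hsph1, a cytosolic chaperone, the treated mean was -0.99 on day 1 and -1.17 on day 28, while the control mean went from -1.04 to -0.17, so the controls moved more than the treated lungs. The control mean moved more between the days than the treated mean in 9 of the 16 genes. Zmynd15, Tlr2, Serpind1 and Tnfrsf4 were among them. Their control means fell by 0.48, 0.35, 0.33 and 0.37, and their treated means rose by 0.25, 0.26, 0.22 and 0.11. Il7r, the interleukin 7 receptor gene, had a day 28 effect of 0.50, and the other 5 genes of this kind (Amz2, Avpi1, Firre, Rbpjl and Snhg3) had effects from -0.34 to 0.59. Of 18 cytosolic heat shock genes, a list chosen after the values were seen, 2 were called lower on day 1 (Hsp90aa1 and Hspb1), 3 lower on day 28 (Hsph1, Hsp90aa1 and Fkbp4) and 0 in the difference. All 18 had an effect below 0 on day 28, against 9453 of the 18656 genes tested. Their median was -0.38 on day 28, against 0.14 on day 1. The mean level of the list went from -0.575 ± 0.110 to -0.279 ± 0.127 in controls and from -0.531 ± 0.172 to -0.686 ± 0.077 in treated lungs (SD, n = 5), so the controls moved more than the treated lungs.

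Macrophage and lysosome genes had a median effect of 0.34 on day 1 and 0.35 on day 28, but their members did not stay alike. In 9 of 26 the effect was higher on day 1 and in the others it was higher on day 28, with a median difference of -0.27. Of the 26 members, 6 were called higher and 1 lower on day 1, 0 on day 28 and 0 in the difference, and 19 and 24 were above 0 on the 2 days. Over all 18656 genes, 9570 and 9203 were above 0, and 3.95% and 0.177% were called. Cd63, Arg1 and Msr1, genes of a tetraspanin of lysosomes, arginase 1 and a scavenger receptor, were called on day 1 (0.78, 0.93 and 0.98) and read 0.12, -0.05 and 0.34 on day 28. Spp1, Trem2, Ctss and Gpnmb, genes of osteopontin, a lipid receptor, cathepsin S and a lysosomal glycoprotein of phagocytes, read 0.49, 0.65, 0.15 and 0.38 on day 1 and 1.88, 1.49, 1.08 and 0.91 on day 28, none called. Gpnmb ran from -2.05 to -0.43 in the treated lungs of day 28 against -2.27 to -1.86 in controls. The mean level of the list was 1.02 ± 0.064 in controls and 1.28 ± 0.156 in treated lungs on day 1, and 0.896 ± 0.141 and 1.41 ± 0.327 on day 28 (SD, n = 5). On day 28 it ran from 0.75 to 1.1 in controls and from 0.99 to 1.79 in treated lungs, which overlap. Cd9, a tetraspanin, was called lower on day 1 (-0.48) and read 0.16 on day 28.

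Of 16 complement and Fc receptor genes, 4 were called higher on day 1 (C3, Cfb, Fcgr2b and Fcgr3), 0 on day 28 and 0 in the difference, with medians of 0.35 and 0.30. C3, the central complement component, read 0.96 and 0.19, and Fcgr4, an activating Fc receptor, -0.19 and 0.47. Of 17 interferon-stimulated genes, 8 were called higher on day 1, 0 on day 28 and 0 in the difference. All 17 were above 0 on both days, against 9570 and 9203 of the 18656 genes tested. Their medians were 0.78 and 0.59, and Isg15, a ubiquitin-like modifier, read 1.95 and 0.88. On day 28 Isg15 ran from -1.14 to 2.17 in treated lungs and from -0.96 to -0.33 in controls. Ifit2 and Gbp2 read 0.61 and 0.59 on day 1 and 0.25 and 0.21 on day 28. The eosinophil-associated ribonucleases, a list chosen after the values were seen whose members are near-identical copies, had 3 of 5 called lower on day 1 (Ear1, Rnase2a and Ear10) and 1 higher (Ear6), and 0 on day 28. Ear1 read 4.60 to 5.43 in controls and 2.4 to 4.85 in treated lungs on day 1, and 4.55 to 5.47 and 4.66 to 5.67 on day 28. Its effects were -1.53 and 0.13, and the difference was not called (-1.66, adjusted p 0.142).

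Markers of resident cell types showed few calls. Over all genes tested, 3.95% were called on day 1 and 0.177% on day 28, so few calls in lists of 6 to 13 members are near these shares. Of 13 B lymphocyte markers, 13 T and natural killer cell markers and 11 airway epithelial markers, 0 were called in any contrast. Alveolar type 2 cells, which make surfactant, had 1 of 9 markers called lower on day 1 (Sftpb), and endothelial cells 1 of 11 called higher (Vcam1, an adhesion molecule). Erythroid markers had 1 of 6 called lower on day 1 (Hba-a1), and fat markers 1 of 10 (Cidec, -1.36). None of these lists had a call on day 28 or in the difference. On day 1 the effect was above 0 in 1 of 13 B lymphocyte, 1 of 6 erythroid and 0 of 10 fat markers. It was above 0 in 8 of 13 T and natural killer cell, 5 of 11 airway, 5 of 9 alveolar type 2 and 6 of 11 endothelial markers. Over all genes it was above 0 in 9570 of 18656. Fat markers had medians of -0.67 and -0.38, and their mean level ran from 1.17 to 3.49 in the controls and 0.50 to 1.95 in the treated lungs of day 1. The 10 glucocorticoid-responsive genes had 0 calls, and medians of 0.08 and 0.17.

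Lower doses of NRCWE-030, instilled into other mice and set against the same controls, gave the following side by side. Saa3 differed from controls by 0.72, 5.28 and 7.31 at 18, 54 and 162 µg on day 1, and by -0.15, 1.84 and 2.11 on day 28. Timp1 differed by 0.27, 2.33 and 3.18 on day 1, and by -0.15, 0.42 and 0.34 on day 28. Mmp9 differed by 0.05, -0.03 and 0.35 on day 1 and by -0.67, -0.96 and -1.11 on day 28. The controls are shared by the doses, so these values are not independent. Dbp differed by 1.77, 1.62 and 1.79 on day 1 and by 1.07, 2.12 and 2.27 on day 28, and Spon2 by -0.65, -1.73 and -2.10 on day 28. The scanner file of replicate 5 at 18 µg on day 28 did not match the series table's column for that sample (correlation over genes 0.9359, against at least 0.9959 for every other array), so which lung it holds is uncertain. Without that array the 18 µg values of day 28 were -0.18 for Saa3, -0.16 for Timp1, -0.77 for Mmp9, 1.35 for Dbp and -0.78 for Spon2.

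**Figure D4:**
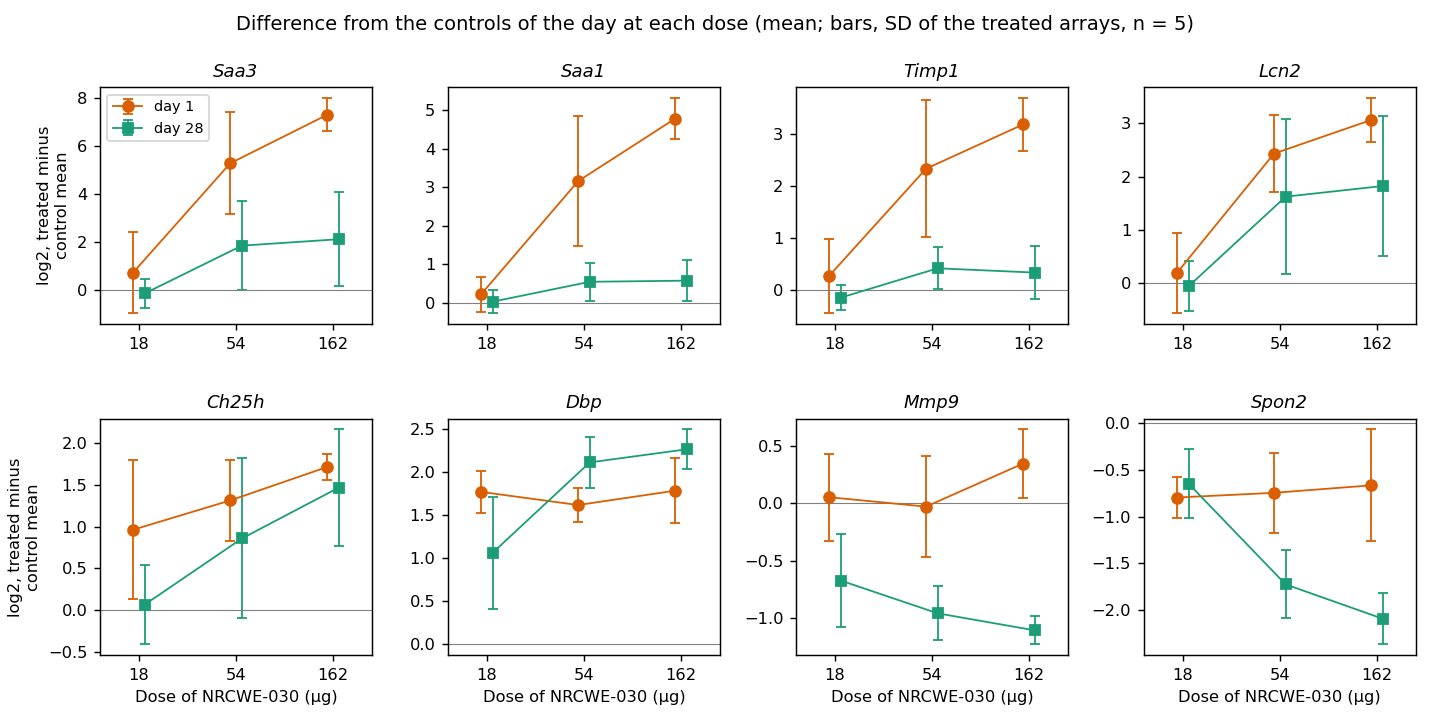
Difference from the control mean of the day (vertical axis, log2) at 18, 54 and 162 µg of NRCWE-030 (horizontal axis, not to scale) for 8 genes on day 1 (circles) and day 28 (squares); points are means and bars the SD of the 5 treated arrays. Saa3, Saa1 and Timp1 stand high at 54 and 162 µg on day 1 and much lower on day 28, whereas Mmp9 and Spon2 are lowest on day 28.

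Whether the change between days differed for the other material was tested in a fit of 6 groups, where the controls cancel. NRCWE-025, the other titanium dioxide of the series, had 5 arrays at 162 µg on day 1 and 4 on day 28. No gene was called by limma in the difference between the materials (0 of 18656, 0%), with 716 genes at an unadjusted p under 0.05 and a smallest adjusted p of 0.422, and 0 were called under each alternative run. For Saa3 the effects of NRCWE-025 were 5.16 and 0.94, and the difference between materials was 0.98 ± 1.37 (SE). For Saa1 they were 3.23 and 0.25 (1.23 ± 0.77), and for Timp1 2.20 and 0.11 (0.76 ± 0.61). Ch25h had effects of 1.54 and 0.54 for NRCWE-025 (-0.76 ± 0.39) and Mmp9 0.35 and -0.72 (0.38 ± 0.29). The course of the response was not shown to be particular to NRCWE-030. The NRCWE-025 lungs of day 1 were known from earlier results to vary far more than controls in acute phase genes. Their spread is pooled in this fit, so a difference between materials in those genes could be missed.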

How the data were processed

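Lung RNA of single mice (Cy5) was hybridised with Universal Mouse Reference RNA (Cy3) on Agilent 2-colour arrays, with no dye swap. The deposited scanner files, written by Agilent Feature Extraction 11.0.1.1 per the file headers, hold the intensity of each spot, its local background, a log10 ratio of red over green and 0 or 1 flags for outlier, non-uniform and well-above-background spots (other). The authors' processed series matrix holds log2 ratios of the same arrays; its scale, centring and direction are not stated, and it was used as an alternative only. Its values correlated with loess ratios without background correction at a median of 0.9964, so its direction is lung over reference. In 1 of the 69 arrays, replicate 5 of 18 µg on day 28, the column did not match the scanner file (0.9359 over genes, where the others reached at least 0.9959). It correlated more with another array (0.9769), which is also below a match. That array entered the values at 18 µg and the fits with 8 and 14 groups, not the main fits.

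Median spot signals were background-corrected with normexp (offset 50) after local backgrounds marked as outliers had been replaced by the median of the array and channel, and were normalised by loess within each array. Spots marked as outlier or non-uniform were left out. Of 41174 probes, 27479 (66.7%) matched a gene symbol of GRCm38.p6 RefSeq tables, used for names and promoter sequences, not for coordinates of probes, whose build is not given in the sources used here. Values were the median over spots of a probe and then over probes of a symbol. Of 18749 symbols, 93 lacked values on some arrays, which left 18656.

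The 4 groups (20 arrays, 16 residual degrees of freedom) were fitted together in limma 3.58.1 (R 4.3.3, with version 1.17.8 of data.table), with Benjamini-Hochberg adjustment over all genes. The difference between materials was fitted over 6 groups. The fits were also run on simulated data with independent noise and no slide or scan day effects. That run cannot show how slide or scan day affect the calls. Figures were drawn with matplotlib 3.10.9 (Python 3.11.15). All samples were assigned from the labels. The p-values rest on the spread between arrays within groups, pooled over the groups of a fit. With 1 array per mouse, that spread holds differences between slides and scan days as well as between mice. Precision is limited by the number of arrays.

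The gene lists and tests were chosen with earlier results of these data known. The lists of MCM helicase, endoplasmic reticulum, glutathione transferase, cytosolic heat shock and eosinophil-associated ribonuclease genes, and the comparisons of single arrays and of controls between days, were chosen after the values were seen. Genes were named by rule among those with a probe well above background on at least 3 of 5 arrays of a group: of the genes called in the difference, the 12 with the largest difference in each direction; of the genes called on both days in the same direction, the 8 with the largest day 28 effect; of those called on day 28, the 8 largest; of those called on day 1 and not in the difference, the 6 with the largest day 28 effect in the day 1 direction; and 3 members of each list with the smallest p of the difference. A gene that the rule names is not reported here. Other genes named to complete a class or list were chosen after their values were seen.

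The alternatives changed the background, the normalization, the probes, the groups in the fit, the slide or scan day as a block, array weights, and left out each array in turn. Leaving out the 3 arrays with a high Cy3 background was added after the data were seen.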

Additional observations from a re-analysis of the deposited data

Results flagged for a closer look

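For 30 named genes the day 1 and day 28 effects differed in the test of the difference itself (limma, adjusted p under 0.05). The differences (log2, day 1 minus day 28) were 5.20 for Saa3, 4.21 for Saa1, 3.32 for Saa2, 3.25 for Orm2, 2.85 for Timp1 and 2.76 for Orm1. They were 1.79 for Ccl24, 1.68 for Hpx, 1.67 for Il1b, 1.62 for Asprv1, 1.59 for Mmp3 and 1.59 for Il1r2. For the neutrophil receptor Csf3r the value was 1.55, for Mmp9 1.46, for Adamts9 1.04, for Hmox1 0.91, for Mcm2 0.90 and for Mcm6 0.74. Negative differences were -1.82 for Slc13a4, -1.5 for Ogn, -1.39 for Dpep1, -1.13 for Myom3, -1.0 for Fhl1 and -0.98 for Gstm1. Further ones were -0.96 for Gsta3, -0.74 for Itga11, -0.73 for Prodh, -0.67 for Fbxo31, -0.67 for Itm2b and -0.65 for C1qtnf4.

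A sample stood far from the other 4 of its group in 24 of 396 groups of named genes tested, and chance flags about 1 in 20 groups. Of these, 6 were control replicate 4 of day 28, with levels of 1.49 for Orm2, 1.31 for Orm1, -1.69 for Ccl24, 1.95 for Cd79b and 2.13 for Ms4a1, both B lymphocyte genes, and 6.22 for Cidec, a lipid droplet gene. Control replicate 3 of day 1 read 2.26 for Dbp against -0.25 for the next control, 3.10 for Hlf against 1.82, and -0.24 for Ms4a1. Control replicate 2 of day 1 read 1.41 for Orm2, 0.94 for Orm1, and 1.09 for Ryr2 and 3.16 for Tnnc1, both heart muscle genes. The other controls of day 1 that stood apart read 2.23 for Dpep1, 7.06 for Hbb-bt, -0.55 for Tnc and -0.53 for Syt12. Control replicate 5 of day 28 read 3.35 for Gsta3 and 2.10 for Tmem243. Among treated lungs of day 1, replicate 1 read 0.85 for Dpep1 and 5.91 for Sec14l3, an airway epithelial gene. Among those of day 28, replicate 4 read 4.15 for Cxcl14 and 6.90 for Hbb-bt, and replicate 3 read 2.94 for Scube2.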

How the results depend on the processing

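The 736 genes called on day 1 became 159 with scan day as a fixed block, 1198 with a random slide block, and 482 without the 3 arrays with a high Cy3 background (control replicate 3 of each day and treated replicate 2 of day 28). The 33 of day 28 became 14 without background correction, 4 with the scanner log ratio, 20 with 8 groups in the fit, 165 with a random slide block, 20 with slide or 1 with scan day fixed, 70 with array weights and 12 without the 3 arrays. The 63 of the difference became 37 with all 14 groups, 39 with 8 groups, 165 with slide as a random block, 4 with scan day as a fixed block and 24 without the 3 arrays. In the same order of those settings, resolving genes numbered 33, 36, 144, 4 and 23, against 58. Persisting genes, 14 in the report, numbered 5 without background correction, 2 with the scanner log ratio and 7 with the series table. Among these, 5, 2 and 6 were of the 14. They numbered 6 with 14 groups, 4 with 8 groups, 1 with scan day and 7 without the 3 arrays. Here only 1, 1, 0 and 2 were of the 14, so most were other genes. Slide as a random block gave 60 and array weights 27, each including all 14. With slide as a fixed block 596 genes were called on day 1 (253 of them among the 736) and 45 in the difference (15 among the 63), with 43 resolving (14 of the 58) and 13 persisting (3 of the 14), so counts near those of the report were largely other genes. Late genes, 3 in the report, numbered 1 with the scanner log ratio, the brightest probe, 8 groups, slide as a fixed block or without the 3 arrays. They numbered 10 with a random slide block and 0 with scan day. The late gene found with slide as a fixed block was not one of the 3, whereas the single ones of the other settings were. Genes called on day 1 without a call in the difference fell from 664 to 154 with scan day. Scan day leaves 6 and slide 3 residual degrees of freedom; the cause was not tested otherwise.

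With each array left out in turn, the counts ran from 404 to 803 on day 1, 4 to 58 on day 28, 31 to 79 in the difference, 30 to 73 resolving, 1 to 28 persisting, 1 to 3 late, 355 to 751 called on day 1 without a call in the difference, and 0 to 0 between materials. The day 1 count fell to 404 without treated replicate 2, 460 without treated replicate 5 and 479 without control replicate 4 of day 1. The difference fell to 31 without control replicate 2 of day 28, 36 and 38 without treated replicates 1 and 4 of day 28, and 37 without treated replicate 1 of day 1. The day 28 count moved by over 1.5 times in 16 of 20 such fits, and was 4 without control replicate 3 and 58 without treated replicate 4. No named gene called in the difference changed the sign of its difference under any alternative or with any array left out. Of the 99 named genes, 13 changed it under an alternative and 6 with an array left out, none called; among them were Dbp (-0.64 to 0.29 under alternatives), Clec4a2 (-0.18 to 0.31), Cd8a (-0.78 to 0.22), Gbp2 (-0.11 to 0.47) and Cfd (-1.99 to 4.58), and Ly6f (-0.16 to 0.87) with an array left out. Aquantile scaling leaves the ratios as they are. The difference between materials was not run with 8 groups. Samples could not be paired by label, because the labels number samples across the whole series and give no replicate numbers shared between groups. Slide, which holds both groups in 5 cases, was fitted as a block instead, with the counts above. Signal over background limits Orm1, Orm2, Il6 and dim probes.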
